A study of Homo sapiens with 6 samples.

Results

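Respiratory complex I was followed through its mRNAs in RKO cells, a human line established from a colorectal cancer, after knockdown of TRMT6. The 55 genes described are those whose symbol begins with NDUFA, NDUFB, NDUFC, NDUFS or NDUFV (NDUFAB and NDUFAF included), together with MT-ND1 to MT-ND6 and MT-ND4L, out of 20289 genes in the deposited table. They comprise 37 nuclear genes of complex I subunits, 8 NDUFAF assembly factors and 7 mitochondrially encoded subunits. The other 3 genes carry such a symbol but encode no separate complex I subunit: NDUFA4, now counted as a subunit of cytochrome c oxidase, its paralog NDUFA4L2, and the readthrough transcript NDUFC2-KCTD14. Both groups were RKO cells. One carried a control short hairpin RNA (shControl, n = 3 libraries) and the other a hairpin against TRMT6 (shTRMT6, n = 3), the non-catalytic subunit of the enzyme that makes 1-methyladenosine in tRNA. Values are FPKM, fragments normalised to the length of a gene and to the size of its library. The sources used here do not give the hairpin sequences, the number of hairpins or clones or the time of harvest. Nothing in the labels says whether replicates were separate cultures, so the p-values speak only to how these libraries vary, which may be technical.

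Complex I oxidises NADH, passes the electrons through a chain of iron-sulfur clusters to ubiquinone and pumps protons across the inner mitochondrial membrane. Its core subunits, conserved from bacteria, carry out catalysis; 7 of them are nuclear and form the matrix arm, and 7 are made inside the mitochondrion and form the proton-pumping membrane arm. Accessory subunits surround this core, and assembly factors join the modules, modify core subunits or insert cofactors and then leave the finished enzyme.

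TRMT6 itself checked the labels. It read 14.43, 17.96 and 16.85 FPKM in shControl against 1.58, 1.73 and 1.09 FPKM in shTRMT6, 11.2-fold lower (log2 change -2.82 with an SE of 0.135, adjusted p = 4.33e-08; exact two-sided permutation p = 0.1, the smallest that 3 libraries against 3 allow). FPKM keep no fragment totals. The steps between low values gave rough depths of 21.1 to 28.3 M fragments in shControl and 18.1 to 20.4 M in shTRMT6. This fit was weak. Its score, a mean cosine that is 1 for a perfect match, was 0.12 for shControl replicate 2. It was 0.265 to 0.45 for the other libraries. The depth of shControl replicate 2 is thus not established, and the depths do not rank the groups. Libraries differed in how their log2 values followed transcript GC content. Per 10 points of GC they deviated from the mean of all 6 by 0.22, -0.00462 and 0.0337 in shControl. In shTRMT6 the deviations were -0.0715, -0.153 and -0.0248. The library of shControl replicate 1 stood apart, and every shTRMT6 library lay below every shControl library. The trend on GC content thus ran along with the knockdown. Of 9 colon epithelial markers, CDX2, EPCAM, KRT8 and KRT18 were measured above 1 FPKM, and CDH1, KRT19, KRT20, LGR5 and VIL1 were listed at 0 in all libraries. Their summed level was 123.6 to 156.1 FPKM in shControl against 201.0 to 213.6 FPKM in shTRMT6. Most of this sum is KRT18, which rose (log2 fold change 0.66, adjusted p = 0.00053). KRT8 (0.067, adjusted p = 0.687) and CDX2 (-0.047, adjusted p = 0.811) did not pass, and EPCAM (0.50, adjusted p = 0.0282) lost its call in 4 alternatives, among them leaving out shControl replicate 1 (0.086) or shTRMT6 replicate 2 (0.114) or 3 (0.0691). Of 8 markers of other cells, CD68, which lies in lysosomes of many cell types, ran from 676.97 to 996.37 FPKM. ALB reached 10.74 FPKM in shControl replicate 2, and the other 6 stayed under 1 FPKM. The part of these markers in the results below was not tested.

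Nuclear subunit mRNAs of complex I moved by less than 2-fold and in both directions, and 5 of 8 NDUFAF assembly factor mRNAs rose. Of 7 mitochondrial mRNAs 1 fell, which is near the share of all genes that did. Genes were tested with limma, a linear model across all genes, on log2(FPKM + 1); a gene rose or fell where its Benjamini-Hochberg adjusted p was under 0.05, and 16 alternative settings were run. They include leaving out each library in turn, the replicate number as a term of the model (the replicate block) and a GC correction, which subtracts from each library a smooth curve fitted on transcript GC content. Of the 37 nuclear subunit genes, all above the level for testing (a mean of 1 FPKM), 11 rose, 2 fell and 24 did not pass the test. Across all 10592 genes tested, 19.3% were called higher and 16.1% lower, against 29.7% and 5.41% of the nuclear subunits. Their median log2 fold change was 0.16, beside 0.024 over all genes tested. Of the 8 NDUFAF genes 5 rose (62.5%), 1 fell (12.5%) and 2 did not pass, with a median of 0.46. Of the 7 mitochondrial subunit genes none rose, 1 fell and 6 did not pass, with a median of -0.19. That 1 gene is 14.3% of the 7, against the 16.1% of all genes tested. With the GC correction the NDUFAF median was 0.25, with 3 genes higher, and the mitochondrial median -0.35, with 6 genes lower. That correction called 2089 of all 10573 genes higher and 2056 lower. The groups did not overlap for 15 nuclear subunits that were higher and 3 that were lower in shTRMT6, against 26.2% and 22.1% of all genes tested. With the replicate number as a block, 15 nuclear subunits were higher and 4 lower, and 3 mitochondrial subunits were lower. Over all 10592 genes tested the block called 2702 higher and 2252 lower, against 2042 and 1704 in the main fit. Leaving out shTRMT6 replicate 1 or 2 reduced the nuclear subunits called higher to 6 or 7. Calls over all genes shrank as well, to 1305 or 1295 higher. The lists were compared with all genes by counts and medians only, with no test of the difference.

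**Figure D1:**
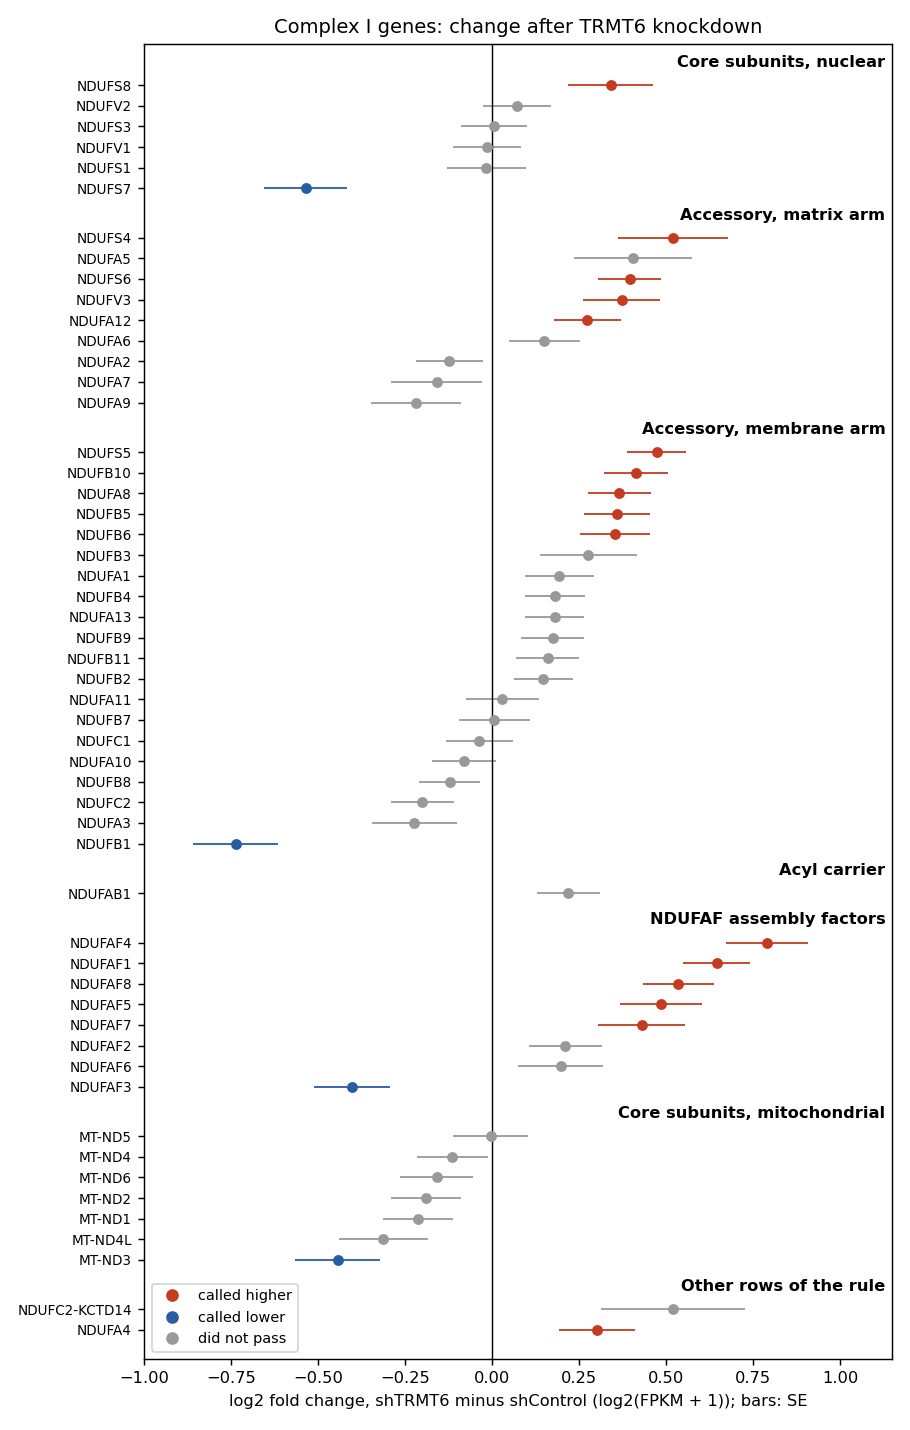
Log2 fold change (shTRMT6 minus shControl, on log2(FPKM + 1)) of tested complex I genes, grouped by role; points are limma estimates from 3 libraries a group and bars their standard errors. Red points were called higher, blue lower, grey did not pass; estimates run from -0.74 (NDUFB1) to 0.79 (NDUFAF4), and all 7 mitochondrial subunits lie below 0.

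Changes among the nuclear core subunits went in both directions. NDUFS7 (chromosome 19, bases 1383527 to 1395589 on the plus strand in GENCODE release 29, GRCh38), which lines the quinone-binding pocket and holds the last iron-sulfur cluster of the chain, fell. It read 120.12, 93.99 and 88.68 FPKM in shControl against 75.76, 63.57 and 67.33 FPKM in shTRMT6. The groups did not overlap, and the mean fell 1.47-fold (log2 change -0.54 with an SE of 0.12, adjusted p = 0.00419), with the highest level in shControl replicate 1. NDUFS8, which carries iron-sulfur clusters of the same region, read 106.73, 84.04 and 75.95 FPKM in shControl against 120.99, 102.20 and 112.57 FPKM in shTRMT6. Its groups overlapped in that shControl replicate 1 lay above shTRMT6 replicate 2 (1.26-fold; log2 change 0.34 with an SE of 0.12, adjusted p = 0.0441). The NDUFS8 call was lost on leaving out shControl replicate 2 (adjusted p = 0.108) or 3 (0.167), on leaving out shTRMT6 replicate 1 (0.166) or 3 (0.091), and under 3 other settings (0.0666 to 0.121).

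For 4 further core subunits, which did not pass, log2 fold changes ran from -0.017 to 0.07, and their groups overlapped. NDUFV1, which binds FMN and takes electrons from NADH, read 140.10, 123.98 and 114.36 FPKM in shControl against 121.97, 131.11 and 120.46 FPKM in shTRMT6 (log2 change -0.015 with an SE of 0.10, adjusted p = 0.924). NDUFV2, its iron-sulfur partner, read 151.52, 146.77 and 134.65 FPKM in shControl against 152.68, 165.61 and 137.25 FPKM in shTRMT6 (log2 change 0.07 with an SE of 0.10, adjusted p = 0.605). For both, the libraries of the 2 groups were interleaved. NDUFS1, the large subunit that holds most clusters of the NADH module, read 31.59, 36.36 and 36.94 FPKM in shControl against 37.35, 37.03 and 29.58 FPKM in shTRMT6 (log2 change -0.017 with an SE of 0.11, adjusted p = 0.925). NDUFS3, a scaffold of the quinone module, read 99.10, 91.08 and 82.81 FPKM in shControl against 87.38, 90.10 and 96.03 FPKM in shTRMT6 (log2 change 0.005 with an SE of 0.10, adjusted p = 0.971). In both genes the libraries of the groups were interleaved; NDUFS1 was called lower when the GC correction and the replicate block were combined (log2 fold change -0.22, adjusted p = 0.021). NDUFV2 shares 73.3% of the 75-base windows of its longest coding transcript with other annotated genes, among them the pseudogene NDUFV2P1, and NDUFV1 shares 11.2%, so how their fragments were assigned is uncertain.

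Among accessory subunits of the matrix arm 4 of 9 rose (44.4%, against 19.3% of all genes tested) and none fell (median log2 fold change 0.27). With the GC correction 2 rose and the median was 0.13, and leaving out shTRMT6 replicate 1 or 2 left 1. NDUFS6, a zinc-binding subunit of the NADH module, read 98.28, 92.84 and 86.60 FPKM in shControl against 123.18, 124.66 and 117.86 FPKM in shTRMT6 (1.32-fold; log2 change 0.40 with an SE of 0.09, adjusted p = 0.00483). NDUFV3, at the tip of the matrix arm, was the lowest-expressed subunit gene and read 7.11, 6.90 and 6.89 FPKM in shControl against 10.10, 9.50 and 8.41 FPKM in shTRMT6 (1.34-fold; log2 change 0.37 with an SE of 0.11, adjusted p = 0.0197). Neither gene's groups overlapped. NDUFS4, whose loss destabilises the NADH module and causes Leigh syndrome, read 11.66, 17.82 and 14.52 FPKM in shControl against 21.80, 25.50 and 17.02 FPKM in shTRMT6 (1.46-fold; log2 change 0.52 with an SE of 0.16, adjusted p = 0.0221). NDUFS4 overlapped between groups, since shControl replicate 2 lay above shTRMT6 replicate 3. NDUFA12, which takes the place that the assembly factor NDUFAF2 leaves, read 40.64, 41.96 and 37.01 FPKM in shControl against 46.51, 52.06 and 46.56 FPKM in shTRMT6 (1.21-fold; log2 change 0.27 with an SE of 0.10, adjusted p = 0.0438). Its groups did not overlap.

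Of these 4 calls, only that of NDUFS6 held under all 16 alternatives. The NDUFV3 call was lost on leaving out shControl replicate 3 (adjusted p = 0.0613) and on leaving out shTRMT6 replicate 1 (0.106) or 2 (0.0687). The NDUFS4 call was lost on leaving out shControl replicate 1 (adjusted p = 0.0851), on leaving out shTRMT6 replicate 1 (0.0647) or 2 (0.0946), with the GC correction (0.0502) and with no filter on low values (0.102). The NDUFA12 call ended in 9 alternatives, among them on leaving out shControl replicate 2 (adjusted p = 0.0618) or 3 (0.166), on leaving out shTRMT6 replicate 1 (0.0933) or 2 (0.19), and with the GC correction (0.123). The remaining members of this class did not pass. NDUFA5 ran from 10.36 to 15.54 FPKM in shControl against 13.21 to 21.61 FPKM in shTRMT6 (log2 change 0.40 with an SE of 0.17, adjusted p = 0.0774); it passed with the replicate block (adjusted p = 0.00148), on leaving out shControl replicate 2 (0.017) and on leaving out shTRMT6 replicate 3 (0.0315). NDUFA2, NDUFA6, NDUFA7 and NDUFA9 had log2 fold changes from -0.22 to 0.15. NDUFA7 shares 72.5% and NDUFA9 12.7% of their windows with other annotated genes.

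In the membrane arm 5 of 20 accessory subunit genes rose, 1 fell and 14 did not pass (median log2 fold change 0.17). The shares were 25.0% higher and 5.0% lower, against 19.3% and 16.1% of all genes tested. NDUFS5 (chromosome 1, bases 39026318 to 39034636, plus strand), a disulfide-linked protein on the intermembrane-space face, was the second most abundant nuclear subunit mRNA per length. It read 209.69, 220.25 and 213.05 FPKM in shControl against 312.24, 298.17 and 282.93 FPKM in shTRMT6, a clear separation of the groups. Its mean rose 1.39-fold, from 214.3 ± 5.4 to 297.8 ± 14.7 FPKM (SD, n = 3; log2 change 0.47 with an SE of 0.09, adjusted p = 0.00133). NDUFB10 and NDUFA8, which lie on the same face, also rose. NDUFB10 read 96.06, 90.63 and 86.11 FPKM in shControl against 122.72, 112.89 and 128.76 FPKM in shTRMT6 (1.34-fold; log2 change 0.41 with an SE of 0.09, adjusted p = 0.00449). NDUFA8 read 73.24, 73.14 and 66.84 FPKM in shControl against 90.52, 95.74 and 89.01 FPKM in shTRMT6 (1.29-fold; log2 change 0.36 with an SE of 0.09, adjusted p = 0.00755). The groups of these 3 genes did not overlap, and their calls held under all 16 alternatives. NDUFB7, another protein of that face, did not pass and ran from 85.69 to 105.85 FPKM in shControl against 90.14 to 97.48 FPKM in shTRMT6 (log2 change 0.006 with an SE of 0.10, adjusted p = 0.97). It passed only when the GC correction and the replicate block were combined (log2 fold change 0.16, adjusted p = 0.0256).

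NDUFB5 and NDUFB6, single-pass subunits of the distal membrane arm, rose by similar amounts. NDUFB5 read 19.18, 19.17 and 20.28 FPKM in shControl against 25.05, 25.10 and 25.88 FPKM in shTRMT6 (log2 change 0.36 with an SE of 0.10, adjusted p = 0.0107). NDUFB6 read 16.58, 19.12 and 17.99 FPKM in shControl against 22.83, 24.22 and 22.27 FPKM in shTRMT6 (1.29-fold; log2 change 0.35 with an SE of 0.10, adjusted p = 0.0163). The groups did not overlap for either gene. The GC correction lowered the log2 fold changes to 0.12 (NDUFB5, adjusted p = 0.325) and 0.14 (NDUFB6, adjusted p = 0.114) and ended both calls. The NDUFB6 call also ended on leaving out shTRMT6 replicate 1 (adjusted p = 0.0575) or 2 (0.0748).

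NDUFB1 (chromosome 14, bases 92116122 to 92121917, minus strand), a small single-pass subunit of the same distal module, had the largest fold change of the 37 nuclear subunits and went down. It read 33.06, 45.12 and 44.75 FPKM in shControl against 24.79, 22.21 and 24.86 FPKM in shTRMT6. The lowest shControl library was replicate 1, which still lay above all 3 shTRMT6 libraries. The mean went from 41.0 ± 6.86 to 24.0 ± 1.51 FPKM (SD, n = 3; log2 change -0.74 with an SE of 0.12, adjusted p = 0.000773). The direction and the call held under all 16 alternatives, with log2 fold changes from -0.88 to -0.66.

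**Figure D2:**
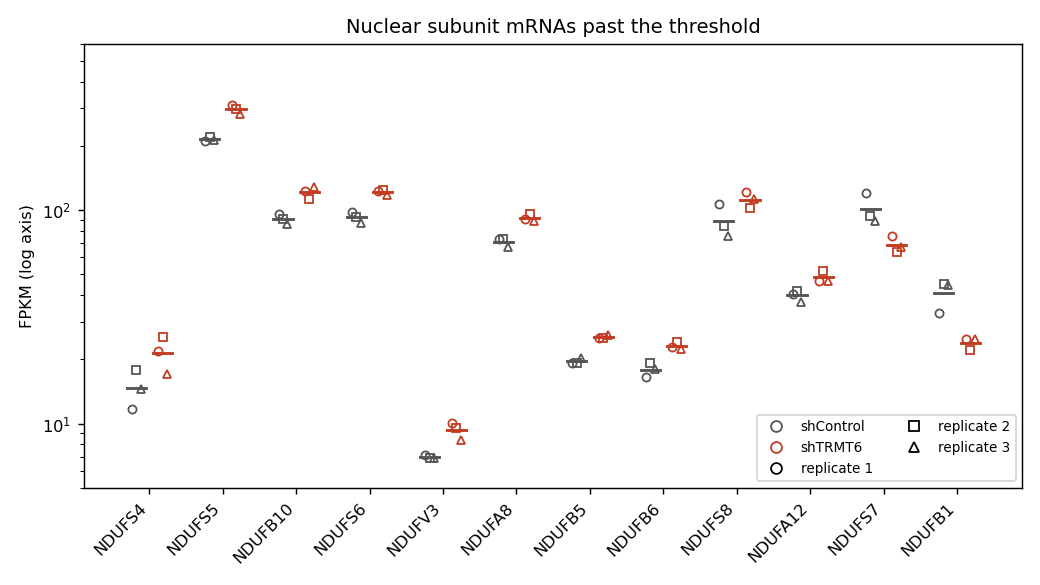
FPKM (log axis) of 12 nuclear subunit genes past the threshold, ordered from the highest to the lowest log2 fold change; grey symbols are shControl and red symbols shTRMT6 libraries, the shape gives the replicate and bars are group means. The groups overlap for NDUFS4 and NDUFS8 and are apart for the other 10, with NDUFS7 and NDUFB1 lower in shTRMT6.

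The 14 membrane-arm accessory genes that did not pass had log2 fold changes from -0.22 (NDUFA3) to 0.28 (NDUFB3). NDUFB9, the most abundant nuclear subunit mRNA per length with a mean of 565.5 FPKM over the 6 libraries, read 494.03, 557.22 and 544.07 FPKM in shControl against 593.09, 568.62 and 636.25 FPKM in shTRMT6 (log2 change 0.17 with an SE of 0.09, adjusted p = 0.155). Every shTRMT6 value was above every shControl value, as was the case for NDUFA1, NDUFA13, NDUFB2 and NDUFB4, none of which passed. NDUFC2 was the only one of the 14 with all shTRMT6 libraries below all shControl libraries. It read 86.43, 89.24 and 97.89 FPKM in shControl against 80.45, 77.51 and 79.26 FPKM in shTRMT6 (log2 change -0.20 with an SE of 0.09, adjusted p = 0.0978). NDUFC2 passed with the replicate block (adjusted p = 0.038), with the GC correction (0.00709) and on leaving out shControl replicate 1 (0.0445). The block also called NDUFA3 lower (adjusted p = 0.0366) and NDUFB3 (0.0142) and NDUFA13 (0.0476) higher. NDUFA13 shares 39.7%, NDUFB8 48.8% and NDUFA11 13.8% of their windows with another annotated gene. NDUFC2 shares 14.7% with NDUFC2-KCTD14, whose estimate was positive, so how their fragments were assigned is uncertain.

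NDUFAB1, the mitochondrial acyl carrier protein, sits in both arms and also serves fatty acid and lipoate synthesis. It read 137.64, 149.40 and 139.20 FPKM in shControl against 162.60, 178.19 and 156.07 FPKM in shTRMT6. The groups did not overlap, but the log2 fold change of 0.22 (SE 0.09) did not pass (adjusted p = 0.0768); with the replicate block it did (adjusted p = 0.0178).

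Of the assembly factors, NDUFAF4 and NDUFAF1 showed the largest increases of all 54 tested members. NDUFAF4 (chromosome 6, bases 96889313 to 96897881, minus strand), which works with NDUFAF3 on the quinone module, read 6.25, 7.84 and 6.97 FPKM in shControl against 12.73, 14.13 and 11.70 FPKM in shTRMT6. Its mean rose 1.83-fold, from 7.02 ± 0.796 to 12.9 ± 1.22 FPKM (SD, n = 3; log2 change 0.79 with an SE of 0.12, adjusted p = 0.000399). NDUFAF1 (chromosome 15, bases 41387349 to 41402519, minus strand), part of the complex that builds the ND2 module, read 13.58, 13.71 and 13.81 FPKM in shControl against 21.39, 22.47 and 22.13 FPKM in shTRMT6. Replicates of NDUFAF1 were tight, and the mean rose 1.61-fold, with SDs of 0.115 and 0.552 FPKM (n = 3; log2 change 0.64 with an SE of 0.10, adjusted p = 0.000389). In both genes each shTRMT6 library lay above each shControl library, and both calls held under all 16 alternatives.

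NDUFAF3, the partner of NDUFAF4, moved the opposite way. It read 35.63, 29.75 and 27.32 FPKM in shControl against 23.38, 22.62 and 22.91 FPKM in shTRMT6, 1.35-fold lower (log2 change -0.40 with an SE of 0.11, adjusted p = 0.0126). Its groups did not overlap, shControl replicate 1 was the highest library, and the call held under all 16 alternatives with log2 fold changes from -0.49 to -0.25.

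The factors that modify core subunits rose. NDUFAF5, which hydroxylates NDUFS7, read 12.52, 14.63 and 11.42 FPKM in shControl against 19.56, 19.11 and 16.45 FPKM in shTRMT6 (1.43-fold; log2 change 0.49 with an SE of 0.12, adjusted p = 0.00667). NDUFAF8, the stabilising partner of NDUFAF5, read 25.14, 22.63 and 22.89 FPKM in shControl against 37.16, 35.23 and 31.38 FPKM in shTRMT6 (1.47-fold; log2 change 0.53 with an SE of 0.10, adjusted p = 0.00178). NDUFAF7, a protein arginine methyltransferase, read 5.96, 7.43 and 6.36 FPKM in shControl against 10.22, 9.41 and 8.02 FPKM in shTRMT6 (1.40-fold; log2 change 0.43 with an SE of 0.12, adjusted p = 0.0173). None of the 3 genes overlapped between groups, and in each shTRMT6 replicate 3 was the lowest knockdown library. Thus the mRNA of the hydroxylase rose while that of its substrate NDUFS7 fell. The NDUFAF5 call ended with the GC correction (log2 fold change 0.26, adjusted p = 0.0572). The NDUFAF7 call was lost on leaving out shControl replicate 3 (adjusted p = 0.0511), on leaving out shTRMT6 replicate 1 (0.0932) or 2 (0.0554), with the GC correction (0.0537) and with no filter on low values (0.0562).

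NDUFAF2 and NDUFAF6 did not pass. NDUFAF2, which stands in for NDUFA12 during late assembly, ran from 33.62 to 38.29 FPKM in shControl against 37.24 to 45.72 FPKM in shTRMT6 (log2 change 0.21 with an SE of 0.10, adjusted p = 0.134; 0.0477 on leaving out shTRMT6 replicate 3). NDUFAF6, needed for early assembly around ND1, ran from 15.23 to 18.68 FPKM in shControl against 16.50 to 21.63 FPKM (log2 change 0.20 with an SE of 0.12, adjusted p = 0.225). The ranges of both genes overlapped. NDUFAF2 shares 26.0% of its windows with another annotated gene.

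**Figure D3:**
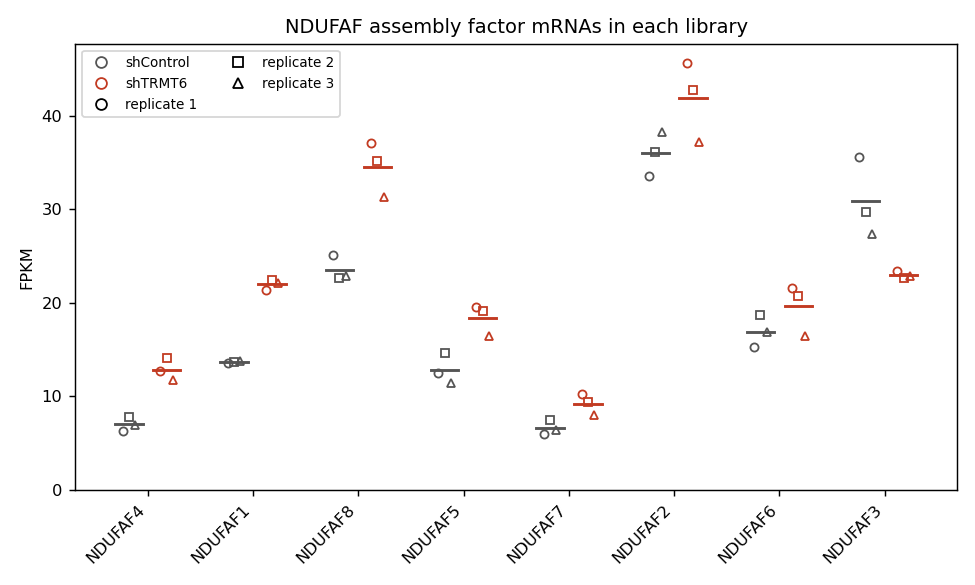
FPKM of the 8 NDUFAF assembly factor mRNAs in each library (linear axis from 0), ordered by log2 fold change; grey is shControl, red is shTRMT6, shapes are replicates and bars are group means. NDUFAF4, NDUFAF1, NDUFAF8, NDUFAF5 and NDUFAF7 lie wholly above their controls, NDUFAF3 wholly below, and NDUFAF2 and NDUFAF6 overlap.

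The mitochondrially encoded subunits were measured at far higher levels per length than the nuclear ones. Their means over the 6 libraries ran from 919.6 FPKM (MT-ND6) to 9176 FPKM (MT-ND2), and those of the nuclear subunits from 8.15 to 565.5 FPKM. These transcripts are cut from long polycistronic RNAs read from both strands of the mitochondrial genome. MT-ND6 alone of the 7 lies on the minus strand in GENCODE release 29. The strand setting is not named in the sources, so fragments of the opposite strand may count toward MT-ND6. The coding regions of MT-ND4L (chromosome M, bases 10470 to 10766) and MT-ND4 (bases 10760 to 12137) overlap by 7 bases and stay together on a single mRNA. The overlap is shown in capitals within 30 bases of the plus strand, because it makes the values of this pair a check on short genes.
MT-ND4L to MT-ND4, chrM:10748-10777, GENCODE release 29 (GRCh38): aaacctactccaATGCTAAaactaatcgtc

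MT-ND3, a core subunit at the junction of the arms, was the one that fell. It read 2592.00, 3271.05 and 3758.13 FPKM in shControl against 2284.29, 2258.82 and 2449.59 FPKM in shTRMT6. Its groups did not overlap, and shControl replicate 1 lay closest to the knockdown (log2 change -0.45 with an SE of 0.12, adjusted p = 0.0134). The call was lost on leaving out shTRMT6 replicate 1 (adjusted p = 0.0522) and with no filter on low values (0.0893). The other members of the membrane core had negative estimates with overlapping groups. MT-ND1, beside the quinone pocket, read 3065.88, 3621.03 and 3720.62 FPKM in shControl against 2924.31, 2895.90 and 3132.02 FPKM in shTRMT6 (log2 change -0.21 with an SE of 0.10, adjusted p = 0.113). MT-ND2, an antiporter-like pump subunit, read 8895.23, 9996.59 and 10474.21 FPKM in shControl against 8166.08, 8364.94 and 9157.91 FPKM in shTRMT6 (log2 change -0.19 with an SE of 0.10, adjusted p = 0.157). In both genes only shControl replicate 1 reached into the knockdown range.

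MT-ND4, another pump subunit, read 6312.67, 7462.50 and 7554.53 FPKM in shControl against 6203.45, 6561.45 and 6876.26 FPKM in shTRMT6 (log2 change -0.12 with an SE of 0.10, adjusted p = 0.401). MT-ND4L, on the same mRNA, read 1835.41, 2466.75 and 2496.06 FPKM in shControl against 1877.92, 1570.02 and 1996.64 FPKM in shTRMT6 (log2 change -0.31 with an SE of 0.13, adjusted p = 0.0739). The ratio of MT-ND4L to MT-ND4 was 0.291, 0.331 and 0.33 in shControl and 0.303, 0.239 and 0.29 in shTRMT6. The ratios overlapped between the groups, and the difference between the estimates of this pair was not tested. In every library the ratio was far below 1 although both lie on a single transcript, so levels per length of short genes are uncertain. MT-ND3, the one called lower, is likewise short, at 346 bases against 297 for MT-ND4L.

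MT-ND5, the distal pump subunit, had the smallest estimate of the 7. Its mRNA is known to carry a 1-methyladenosine made by TRMT10C, not by TRMT6. It read 1589.72, 1985.34 and 2006.44 FPKM in shControl against 1748.64, 1796.79 and 1993.10 FPKM in shTRMT6 (log2 change -0.005 with an SE of 0.11, adjusted p = 0.974). MT-ND6, the minus-strand subunit, read 833.04, 1016.11 and 1068.80 FPKM in shControl against 845.66, 833.32 and 920.53 FPKM in shTRMT6 (log2 change -0.16 with an SE of 0.10, adjusted p = 0.252). For MT-ND5 the sign itself was not stable, with log2 fold changes from -0.13 to 0.053 over the alternatives.

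The number of mitochondrial subunits called lower depended on the setting. It was 5 on leaving out shControl replicate 1 (MT-ND3, MT-ND4L with adjusted p = 0.00761, MT-ND1 with 0.0118, MT-ND6 with 0.024 and MT-ND2 with 0.0286), 6 with the GC correction (all but MT-ND5), 3 with the replicate block (MT-ND3, MT-ND4L and MT-ND1), 3 with quantile normalization and 0 on leaving out shTRMT6 replicate 1. None was called higher under any of the 16 alternatives. MT-ND2 shares 34.4% and MT-ND1 16.3% of their windows with annotated nuclear pseudogenes. In bulk libraries scaled to their own total, less of an RNA per cell and fewer cells with that RNA cannot be told apart.

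The 6 mitochondrial mRNAs outside complex I had estimates on both sides of 0. The summed FPKM of the 7 complex I mRNAs divided by that of the other 6 was 0.4, 0.4 and 0.394 in shControl and 0.356, 0.346 and 0.345 in shTRMT6, and the groups did not overlap. No test was made of this ratio. None of the other 6 passed; their log2 fold changes ran from -0.18 (MT-ATP8) to 0.14 (MT-CO3), with a median of 0.007. MT-ATP6, the most abundant of them, averaged 18386 FPKM in shControl against 16422 FPKM in shTRMT6 (log2 fold change -0.16, adjusted p = 0.25), and passed with the GC correction (adjusted p = 0.0313), which called 2 of the 6 lower. The summed FPKM of the 7 mitochondrial subunits divided by that of the 37 nuclear subunits was 7.22, 8.65 and 9.38 in shControl and 6.27, 6.49 and 7.2 in shTRMT6. The lowest shControl value of this second ratio lay just above the highest shTRMT6 value.

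**Figure D4:**
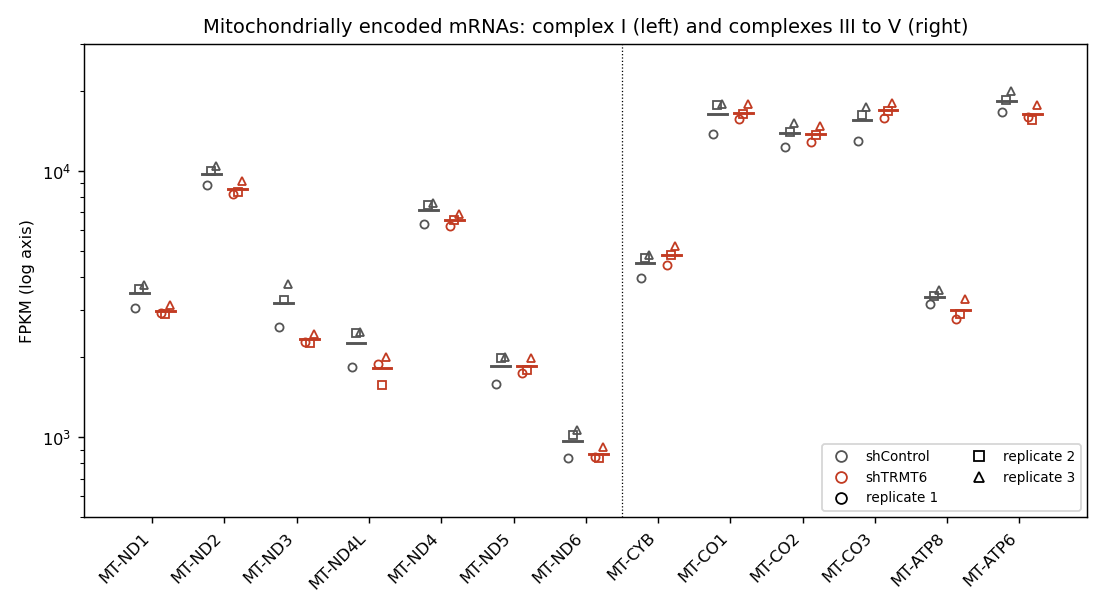
FPKM (log axis) of the 13 mitochondrially encoded mRNAs in each library, the 7 of complex I to the left of the dotted line and the 6 of complexes III to V to the right; grey is shControl, red is shTRMT6, shapes are replicates and bars are group means. MT-ND3 is the only gene whose groups are apart, and shControl replicate 1 is the lowest control library for every gene.

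Among nuclear members the median GC content of the longest coding transcript was 45.9% for the 17 called higher (NDUFA4 among them), 64.0% for the 3 called lower and 47.6% for the 27 that did not pass. The ranges overlapped, at 36.3% to 63.3%, 47.5% to 64.9% and 35.0% to 65.0%, and no difference was tested. The GC correction left 10 nuclear subunits higher and 3 lower, 3 NDUFAF genes higher and 1 lower, and 6 mitochondrial subunits lower. Over all 10573 genes with a GC value it called 2089 higher and 2056 lower. The main fit called 2042 higher and 1704 lower of 10592. The correction ended the calls of NDUFA4, NDUFB5, NDUFB6, NDUFA12, NDUFS4, NDUFAF5 and NDUFAF7 and added NDUFA1, NDUFA13 and NDUFB11 as higher and NDUFC2 as lower. The GC-rich NDUFB10 (59.4% GC) and NDUFAF8 (60.2%) had corrected log2 changes of 0.56 and 0.68. NDUFB1 (47.5%) and NDUFS7 (64.9%) remained lower, at -0.78 and -0.38.

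**Figure D5:**
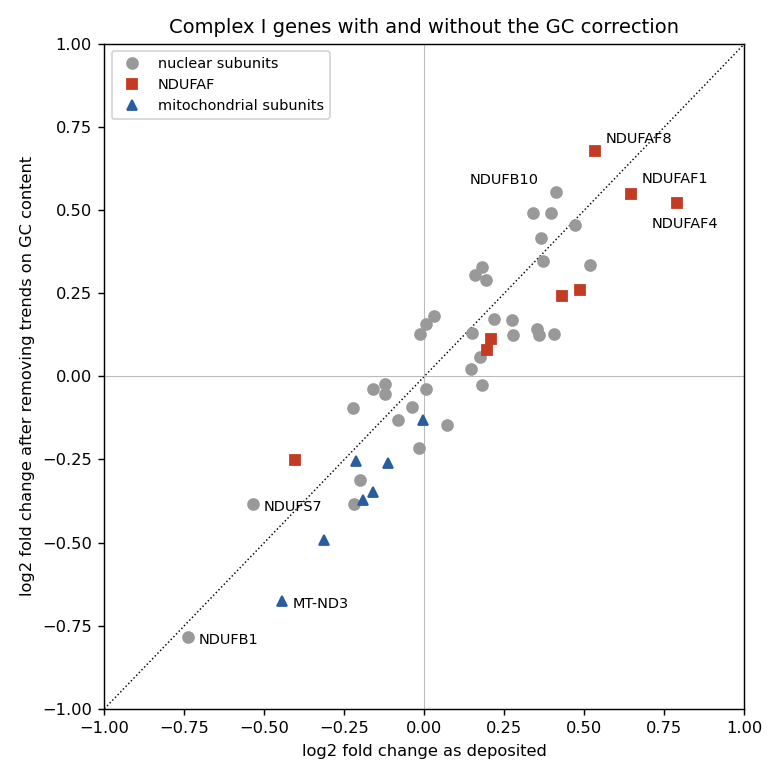
Log2 fold change of complex I genes as computed from the deposited values (x axis) and after the GC correction (y axis); each point is a gene, and the dotted line marks equality. All 7 mitochondrial subunits lie below the line, NDUFAF4 and NDUFAF1 stay above 0.5 on both axes, and NDUFB1 stays below -0.6 on both.

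The 3 remaining genes of the symbol rule were treated apart. NDUFA4 read 32.29, 42.34 and 40.55 FPKM in shControl against 47.19, 48.31 and 46.18 FPKM in shTRMT6 (1.23-fold; log2 change 0.30 with an SE of 0.11, adjusted p = 0.0477). Its groups did not overlap, but the call ended in 11 of the 16 alternatives. They include leaving out shControl replicate 1 (adjusted p = 0.102) or 3 (0.0527) or shTRMT6 replicate 1 (0.124), 2 (0.131) or 3 (0.0706), and the GC correction (0.41). NDUFC2-KCTD14 ran from 2.95 to 5.39 FPKM in shControl against 4.25 to 8.42 FPKM (log2 change 0.52 with an SE of 0.21, adjusted p = 0.0653). It passed with the replicate block (adjusted p = 0.000761), on leaving out shControl replicate 2 (0.0101) and on leaving out shTRMT6 replicate 1 (0.0208). It shares 88.0% of its windows with NDUFC2 or KCTD14, so its level is uncertain. NDUFA4L2, which hypoxia induces in many cells, ran from 0.27 to 0.63 FPKM in shControl against 0.14 to 0.66 FPKM and was below the level for testing.

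The promoters of complex I genes are known targets of NRF1, of GABP and other ETS factors, and of YY1. RefSeq windows from 250 bases before to 50 bases after an annotated start (GRCh38.p14) were found for 40 of the 48 nuclear members. They were searched on both strands for GCGCATGC (NRF1), CCGGAAG (ETS) and AAGATGGC (YY1). NRF1 letters were found at 8 of the 40 genes (against 3.68% of all 27305 genes with a window), YY1 letters at 8 (against 3.52%) and ETS letters at 7 (17.5%, against 12.2%). Genes can have several windows, and a gene was counted if any of them matched. Of the 13 matched genes that were called higher, 4 held NRF1, 2 held ETS and 2 held YY1 letters; of the 24 that did not pass, 3, 5 and 5 did. A match is a description and not a binding site. The windows of the gene with the largest increase, of both called genes with overlapping NRF1 matches at the start site, and of the 2 subunit genes that fell are shown, with matches in capitals.
NDUFAF4, chr6:96897842-96898141, minus strand: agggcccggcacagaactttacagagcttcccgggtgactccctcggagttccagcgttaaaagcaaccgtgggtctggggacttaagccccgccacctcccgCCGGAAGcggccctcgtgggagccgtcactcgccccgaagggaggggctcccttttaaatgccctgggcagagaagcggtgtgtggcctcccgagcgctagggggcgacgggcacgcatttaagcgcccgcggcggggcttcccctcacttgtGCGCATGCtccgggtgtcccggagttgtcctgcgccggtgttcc
NDUFAF5, chr20:13784778-13785077, plus strand: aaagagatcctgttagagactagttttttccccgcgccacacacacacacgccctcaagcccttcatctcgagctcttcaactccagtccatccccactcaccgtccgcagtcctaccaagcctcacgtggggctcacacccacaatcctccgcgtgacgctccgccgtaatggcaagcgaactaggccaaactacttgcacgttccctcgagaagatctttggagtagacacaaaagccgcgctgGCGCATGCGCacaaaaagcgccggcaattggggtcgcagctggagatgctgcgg
NDUFA8, chr9:122159730-122160029, minus strand: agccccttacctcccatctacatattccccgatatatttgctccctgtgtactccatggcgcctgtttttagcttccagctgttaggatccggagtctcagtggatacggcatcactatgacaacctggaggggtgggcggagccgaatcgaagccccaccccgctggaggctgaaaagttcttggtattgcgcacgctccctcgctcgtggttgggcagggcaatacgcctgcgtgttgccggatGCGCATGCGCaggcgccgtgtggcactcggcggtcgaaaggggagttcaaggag
NDUFS7, chr19:1383657-1383956, plus strand: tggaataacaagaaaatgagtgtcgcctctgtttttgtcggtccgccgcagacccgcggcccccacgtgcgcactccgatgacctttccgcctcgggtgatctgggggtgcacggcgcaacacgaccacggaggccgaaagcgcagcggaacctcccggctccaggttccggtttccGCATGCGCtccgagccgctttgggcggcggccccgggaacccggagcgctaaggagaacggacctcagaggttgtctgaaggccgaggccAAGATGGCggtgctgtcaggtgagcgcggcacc
NDUFB1, chr14:92121657-92121956, minus strand: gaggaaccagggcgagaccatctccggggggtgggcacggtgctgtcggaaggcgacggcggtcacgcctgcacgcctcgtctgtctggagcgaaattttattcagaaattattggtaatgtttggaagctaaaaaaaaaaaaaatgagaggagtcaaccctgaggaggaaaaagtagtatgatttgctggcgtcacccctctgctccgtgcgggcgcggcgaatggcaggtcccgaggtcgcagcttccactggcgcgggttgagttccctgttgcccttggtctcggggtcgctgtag

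The NRF1 letters begin 4 bases before the start in both NDUFAF5 and NDUFA8, and again 2 bases before it on the other strand. In NDUFAF4 they begin at base 7 after the start. NDUFS7, which fell, also holds them, 73 bases before the start, with YY1 letters at base 18. NDUFB1 holds none of the 3. Among 9 tested regulators of respiratory genes, GABPA rose from 2.46 ± 0.616 to 3.75 ± 0.445 FPKM (SD, n = 3; log2 fold change 0.46, adjusted p = 0.025) and YY1 1.29-fold (adjusted p = 0.0178). NRF1 fell 1.31-fold (adjusted p = 0.0227) and HCFC1 by 0.36 on the log2 scale (adjusted p = 0.0169). PPARGC1A was at or near 0 in all libraries. The 2 higher and 2 lower calls are 22.2% each of the 9, near the 19.3% and 16.1% of all genes tested. The median log2 fold change of the 9 was -0.16. All 4 of these calls ended on leaving out shTRMT6 replicate 2 (adjusted p = 0.088, 0.0908, 0.0921 and 0.0759 for GABPA, YY1, NRF1 and HCFC1). GABPA also ended on leaving out shControl replicate 1 (adjusted p = 0.0722), on leaving out shControl replicate 3 (0.0751) and on leaving out shTRMT6 replicate 1 (0.081), with the GC correction (0.129) and with no filter on low values (0.0772). YY1 also ended on leaving out shControl replicate 3 (adjusted p = 0.053), and NRF1 on leaving out shControl replicate 2 (0.0582) or 3 (0.0654) or shTRMT6 replicate 1 (0.0738).

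Assembly factors outside the NDUFAF family moved both ways, with 5 of 18 higher and 2 lower (median log2 fold change 0.16). These are 27.8% and 11.1%, against 19.3% and 16.1% of all genes tested. TMEM126A, which helps build the ND4 module, rose (log2 change 0.56 with an SE of 0.13, adjusted p = 0.00436), and LYRM2, of the NADH module, 1.59-fold (0.59, SE 0.15, adjusted p = 0.00774; 0.0512 with no filter on low values). FOXRED1, a flavoprotein also needed for the ND4 module, fell 1.38-fold (-0.44, SE 0.11, adjusted p = 0.00794). NUBPL, which delivers iron-sulfur clusters to complex I, rose 1.54-fold (0.43, SE 0.13, adjusted p = 0.0217). The NUBPL call was lost on leaving out shControl replicate 3 (adjusted p = 0.0674), on leaving out shTRMT6 replicate 1 (0.0741) or 2 (0.0934) and with the GC correction (0.105). The counts depended on which library was left out. They were 2 higher and 2 lower without shTRMT6 replicate 1. Without shTRMT6 replicate 2 or shControl replicate 3 they were 3 higher and 2 lower. They stayed at 5 higher and 2 lower without shControl replicate 1 or shTRMT6 replicate 3, and were 4 and 2 without shControl replicate 2.

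Of 14 genes of mitochondrial iron-sulfur cluster synthesis, 4 rose (28.6%) and 1 fell (7.14%; 2 genes with the replicate block). Over all genes tested 19.3% were higher and 16.1% lower. The scaffold ISCU rose from 30.8 ± 2.02 to 47.0 ± 3.16 FPKM (SD, n = 3; log2 change 0.59 with an SE of 0.10, adjusted p = 0.000773), whereas the cysteine desulfurase NFS1, which supplies its sulfur, fell from 27.8 ± 1.02 to 14.2 ± 0.333 FPKM (-0.93, SE 0.10, adjusted p = 3.78e-05). FDXR, the reductase that feeds electrons to the pathway, rose 1.78-fold (0.82, SE 0.12, adjusted p = 0.000381) and ISCA1 1.47-fold (0.53, SE 0.12, adjusted p = 0.00357). Of 12 tested genes of mitochondrial transcription and DNA maintenance, 5 rose (41.7%) and none fell. Of 17 genes of mitochondrial RNA processing and stability, 6 rose (35.3%) and 1 fell (5.88%). The transcription factor TFB2M rose from 15.3 ± 0.346 to 27.5 ± 2.38 FPKM (0.80, SE 0.10, adjusted p = 0.000145). TRMT10C, a subunit of mitochondrial RNase P, read 14.55, 18.06 and 13.59 FPKM in shControl against 27.77, 29.14 and 25.55 FPKM in shTRMT6 (1.78-fold; 0.80, SE 0.12, adjusted p = 0.000344), and its groups did not overlap. The poly(A) polymerase MTPAP rose 1.57-fold (0.60, SE 0.12, adjusted p = 0.00195), FASTKD1, of a family of mitochondrial RNA-binding proteins, 1.67-fold (0.68, SE 0.13, adjusted p = 0.002) and the RNA helicase SUPV3L1 1.47-fold (0.54, SE 0.09, adjusted p = 0.00096). TFAM rose 1.45-fold (adjusted p = 0.0158), a call that ended on leaving out shControl replicate 1 (adjusted p = 0.0521) and on leaving out shTRMT6 replicate 1 (0.0646) or 2 (0.0622) or with no filter on low values (0.0744). The transcription count was 2 on leaving out shTRMT6 replicate 1, 1 on leaving out shTRMT6 replicate 2 and 3 with the GC correction.

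Of the 41 nuclear subunits of complexes II to V, NDUFA4 included, 10 were higher (24.4%) and 2 lower (4.88%), with a median log2 fold change of 0.13. Over all genes tested the shares were 19.3% and 16.1%. Their largest changes were the decreases of UQCRC2, a core protein of complex III (2.07-fold lower, adjusted p = 1.78e-05), and of ATP5MC1, which encodes subunit c of the ATP synthase ring (1.82-fold lower, adjusted p = 9.13e-05). UQCRB of complex III rose 1.52-fold (adjusted p = 0.00217) and ATP5PB of the ATP synthase stalk 1.43-fold (adjusted p = 0.0016). Leaving out shControl replicate 3, or shTRMT6 replicate 1 or 2, gave counts of 5, 3 and 4 higher, and the replicate block gave 15 higher and 3 lower. By complex, the block called 2 genes of complex II higher, against 0 in limma without it, and 4 of complex IV against 2. No difference between the complexes was tested.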

How the data were processed

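RNA came from a TRIzol extraction and was enriched for mRNA before NEBNext Ultra library preparation, per the labels' protocols. The deposited table holds 1 FPKM value for each gene in each library, made by the authors. Tools listed in the submitters' processing notes, with no role, are StringTie 1.3.1, RSEM, HISAT2, Bowtie2 2.2.8 and fastp 0.18.0. The sources used here do not name the build, annotation or strand setting. In the header the groups are abbreviated, and columns were matched to titles by group and number. Of 20289 identifiers, 20257 were named from a table of gene names; GENCODE release 29 (20171 found) supplied coordinates, transcript lengths and GC content. Depth is a rough estimate from short genes with a single transcript, searched between 10 and 32 M fragments.

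Since FPKM are not counts, limma 3.58.1 (R 4.3.3) was fitted to log2(FPKM + 1) of the 10592 genes whose mean reached 1 FPKM, with a trended prior, two-sided, with Benjamini-Hochberg adjustment over all of them and a threshold of 0.05; every adjusted p is from limma. Fold changes on this scale understate those of low genes; folds written as N-fold are ratios of mean FPKM. The fit was also run on simulated data with independent noise and no GC trend or replicate structure. That run does not measure error rates in these libraries. The members and gene lists were chosen with earlier results of these data known. Named genes are TRMT6, TRMT10C, all members and, for each other list, genes taken from the up to 4 called with the largest change, or the most abundant where none was called; not all of these are described. Of the members, 1 is counted but not reported here. Replicate numbers had no part in the main fit and entered only the alternatives with the replicate block. Deviations from group means correlated at 0.206, 0.364 and 0.17 for the same number and at -0.288 to 0.0936 for different numbers. Such deviations cancel out within a group, so these correlations are not independent of one another. No label gives the meaning of a number. The 16 alternatives were pseudocounts of 0.1 and 0.5, no filter, a mean of at least 5 FPKM, quantile and median-of-ratios scaling, no variance trend, the replicate block, a GC correction (lowess span 0.3) alone and with the block, and each library left out.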

Additional observations from a re-analysis of the deposited data

How the results depend on the processing

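Of the 17 members called higher 8 kept their call under all 16 alternatives, of the 4 called lower 3 did (all but MT-ND3), and no called member changed sign; 19 of the 33 that did not pass did so under some alternative. The count of all genes called, 3746, ran from 2407 to 3618 with a library left out, lowest without shTRMT6 replicate 2 or 1 (2465). It was 4954 with the replicate block. Nuclear subunits called higher (11) ran from 6 to 11 with a library left out, those called lower (2) from 2 to 3, NDUFAF genes called higher (5) from 4 to 6 and mitochondrial subunits called lower (1) from 0 to 5. The replicate block gave 4 nuclear subunits lower and 3 mitochondrial subunits lower; besides the members named above (NDUFA3, NDUFA5, NDUFA13, NDUFAB1, NDUFB3, NDUFC2, NDUFC2-KCTD14, MT-ND1 and MT-ND4L) it changed no other member's call. The GC correction gave 3 NDUFAF genes higher and 6 mitochondrial subunits lower, and with the replicate block 5 nuclear subunits lower and 6 mitochondrial subunits lower. Quantile normalization gave 3 mitochondrial subunits lower and no filter on low values 0. The cause of these differences was not tested. TRMT6 was lower in all 16. Depth, known only as a rough 18.1 to 28.3 M fragments per library, sets no interval for single FPKM values.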
